A study of Arabidopsis thaliana with 9 samples.

Results

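Some transcripts of dark-grown Arabidopsis thaliana seedlings differed from wild type in opposite directions when the transcription factor AtGATA2 was overexpressed and when the brassinosteroid receptor BRI1 was lost. They form the subject here, and 192 probe sets, each for a different gene, met the definition, of 11933 probe sets with exactly 1 gene known by its locus code and of 22746 probe sets in all. In 85 of them the intensity was higher in AtGATA2ox and lower in bri1-116 than in wild type, and in 107 it was lower in AtGATA2ox and higher in bri1-116. The definition asked for mean differences from wild type on log2(intensity + 1) of opposite sign and at least 0.58 (1.49-fold) in size. It also asked that neither genotype's 3 arrays overlap the 3 wild-type arrays and that the mean intensity be 200 or more in at least 1 genotype, and 2 genes were left out in advance. The arrays thus chose the genes, so the differences from wild type given below describe the choice and are not tests of it.

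Whole Columbia-0 seedlings, kept in darkness for 108 h on solid medium holding 1% sucrose, gave the RNA, and each genotype was measured on 3 single-colour Affymetrix arrays. AtGATA2ox is a transgenic line that overexpresses AtGATA2, and neither the promoter nor the number of lines is given in the sources used here. The bri1-116 seedlings were homozygotes for a null allele of BRI1, picked one by one after freezing from a population that still segregated the allele. Col is the wild type of the same ecotype and the control for both genotypes, so the comparisons of AtGATA2ox and of bri1-116 with Col share 3 arrays.

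Brassinosteroids are plant steroid hormones that bind the receptor kinase BRI1 at the cell surface and promote elongation of the hypocotyl in the dark. AtGATA2 is a GATA-type zinc finger factor known to promote the kind of development that seedlings show in light, and brassinosteroid signalling is known to repress its transcription. The series addresses crosslinks of light and brassinosteroid regulation, and sets a line with more AtGATA2 and a mutant without BRI1 against the same wild type. The genes described here are those on which the genotypes did not go the same way. By the same numeric definition, 229 locus-code probe sets were higher and 544 lower in both genotypes, while 192 were opposite. The opposite ones made up 1.61% of the locus-code probe sets, while those with the same sign in both genotypes made up 6.48%. Both differences subtract the same 3 Col arrays, which by itself favours equal signs, so the sizes of these classes are not compared.

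**Figure D1:**
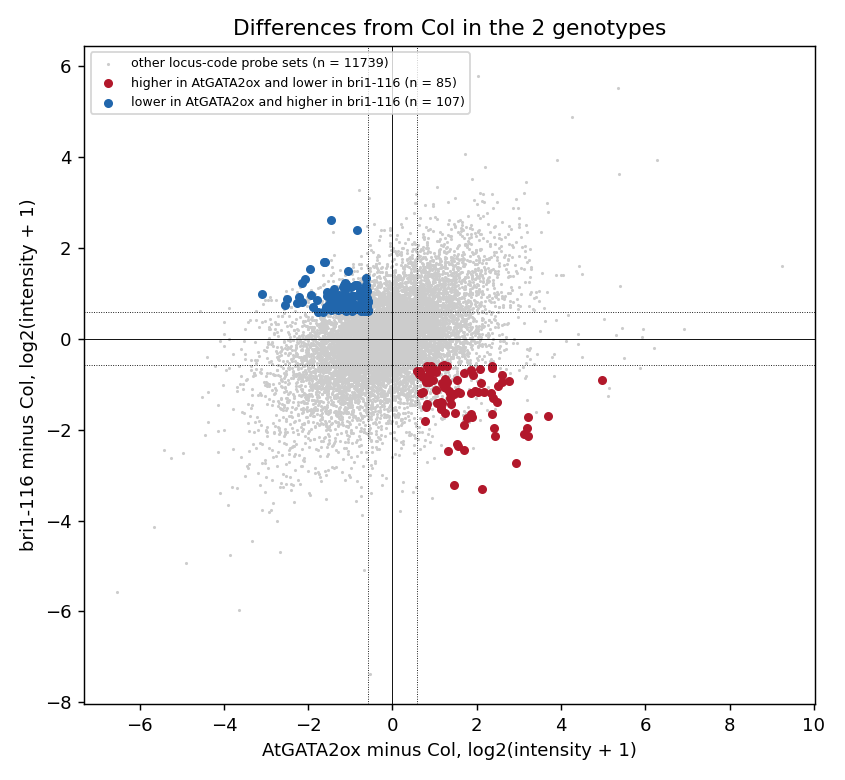
Each point is a probe set with a locus code, placed by its mean difference from Col on log2(intensity + 1) in AtGATA2ox (x axis) and in bri1-116 (y axis), and dotted lines mark 0.58 in either direction. The 85 red and 107 blue points lie in the corners of opposite sign, and grey points among them had overlapping arrays or a mean under 200 in every genotype.

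The plot of the differences in both genotypes shows that the corner of genes higher in AtGATA2ox reached farther out. Of the 85 genes higher in AtGATA2ox, 45 differed from Col by at least 2-fold in both genotypes and 5 by at least 4-fold in both. Those 5 had bri1-116 means of 6.1 to 30.6, where controls for transcripts foreign to the plant reached 39.3, so their sizes there are not exact. Of the 107 genes lower in AtGATA2ox, 15 differed by at least 2-fold in both and 0 by 4-fold in both. The median sizes of the log2 differences were 1.38 in AtGATA2ox and 1.18 in bri1-116 for the first set, and 1.06 in AtGATA2ox and 0.81 in bri1-116 for the second. In the first set 53 genes had the larger difference in AtGATA2ox and 32 in bri1-116, and in the second set the counts were 74 and 33. Between AtGATA2ox and bri1-116 themselves, the median gap was 6.41-fold in the first set and 3.81-fold in the second.

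The genes higher in AtGATA2ox had mean intensities there of 219.8 to 13875, with a median over genes of 1125. The same genes had means of 6.1 to 3905 in bri1-116 (median 139.6) and of 46.0 to 6662 in Col (median 345.9). The genes lower in AtGATA2ox had means there of 19.1 to 1867 (median 147), of 202.3 to 7674 (median 530.1) in bri1-116 and of 103 to 4234 (median 273) in Col. The array's controls for Bacillus transcripts, foreign to the plant, reached means of 61.8 in AtGATA2ox, 39.3 in bri1-116 and 37.2 in Col. Of the genes higher in AtGATA2ox, 9 had a bri1-116 mean within that range, and 11 of the genes lower in AtGATA2ox had an AtGATA2ox mean within it. A fold change against such a level is not exact, since part of the level may be background.

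The limma fit over all 9 arrays, with Benjamini-Hochberg adjustment over 22746 probe sets and a threshold of 0.05, gives the share of probe sets called for comparison. In AtGATA2ox against Col, 74 of the 85 were called higher, where 9.72% of all probe sets were (28.5% in either direction), and 91 of the 107 were called lower, where 18.8% of all were. In bri1-116 against Col, 64 of the 85 were called lower (8% of all probe sets, with 15.1% in either direction) and 57 of the 107 were called higher (7.09% of all). Both calls were made for 57 of the 85 and for 52 of the 107, where 8.99% of all probe sets were called in both comparisons and 1.51% with opposite signs. In AtGATA2ox against bri1-116, the 85 were all called higher (9.55% of all probe sets) and the 107 all called lower (17.2% of all, with 26.8% in either direction). Nothing is read from these counts, since the arrays that give them chose the genes, and the same holds for arrays that do not overlap, which 41.3% of all probe sets showed for AtGATA2ox against Col and 37.6% for bri1-116 against Col.

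The 12 genes higher in AtGATA2ox and lower in bri1-116 with the largest smaller difference are given first, as intensities on arrays 1 to 3 of each genotype. AT4G12500, of the lipid transfer protein type, had 253, 389 and 612 in AtGATA2ox, 7.5, 5.6 and 7 in bri1-116 and 36.7, 81.8 and 42 in Col. AT5G43030, of a family with cysteine- and histidine-rich C1 domains, had 366, 297 and 622 in AtGATA2ox, 11.2, 8.9 and 6.9 in bri1-116 and 54.9, 59.8 and 23.4 in Col. All bri1-116 values of both genes were within the range of the Bacillus controls, and the log2 differences from Col were 2.94 ± 0.56 in AtGATA2ox and -2.74 ± 0.56 in bri1-116 for AT4G12500. AT5G43030 differed by 3.23 ± 0.56 in AtGATA2ox and -2.15 ± 0.56 in bri1-116. The bri1-116 call of AT5G43030 was lost without bri1-116 replicate 3, Col replicate 1 or Col replicate 2 (limma adjusted p of 0.053 to 0.096). The lowest Col array of each gene (36.7 and 23.4) was also within the range of the Bacillus controls, which reached 37.2 in Col. The arrays of the 3 genotypes did not overlap for either gene, as the definition asks.

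AT5G52750 has a heavy-metal-associated domain and had 457, 917 and 1009 in AtGATA2ox, 29.2, 28.6 and 34 in bri1-116 and 44.4, 139.9 and 414 in Col. Its Col arrays were spread more widely than those of the other genotypes, and its bri1-116 difference of -2.14 came to -1.34 without Col replicate 3, where the adjusted p was 0.15 in limma, and to -2.94 without Col replicate 1. The call was also lost without Col replicate 2 or any one of the bri1-116 replicates. AT1G10400, of the UDP-glycosyltransferase family that attaches sugars to small molecules, had 364, 337 and 211 in AtGATA2ox, 6.2, 7.8 and 4.3 in bri1-116 and 55.2, 64.6 and 85.4 in Col. AT3G62950, of the glutaredoxin family of small redox proteins, had 427, 455 and 1029 in AtGATA2ox, 10.3, 6.7 and 43.5 in bri1-116 and 70.5, 52.7 and 78.8 in Col. For AT3G62950 the highest bri1-116 array stood close below the lowest Col array. Its bri1-116 difference of -2.10 ran from -2.85 without bri1-116 replicate 3 to -1.59 without bri1-116 replicate 2, and its call was lost without bri1-116 replicate 1 or 2 or any of the Col replicates. The bri1-116 means of these 3 genes were within the range of the Bacillus controls, so these sizes are not exact.

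AT4G32870, of a polyketide cyclase-like family, was measured well above the controls in every genotype and had 1835, 3219 and 4381 in AtGATA2ox, 148, 144 and 128 in bri1-116 and 508, 628 and 526 in Col. Its log2 differences were 2.42 ± 0.26 in AtGATA2ox and -1.97 ± 0.26 in bri1-116, with narrow ranges in bri1-116 and Col. AT2G41730, whose probe set carries the suffix for probes that may also match other transcripts, had 4407, 6698 and 8052 in AtGATA2ox, 198, 148 and 174 in bri1-116 and 204, 423 and 3553 in Col. The third Col array of AT2G41730 was close to the AtGATA2ox level. Without it the differences were 4.39 in AtGATA2ox and -0.77 in bri1-116, against 3.20 and -1.97 with it. The bri1-116 difference of -1.97 did not pass the test (limma adjusted p = 0.085), and it was -2.83 without Col replicate 1. AT2G21850, another gene with C1 domains, had 394, 580.4 and 645 in AtGATA2ox, 59.4, 49.4 and 30.7 in bri1-116 and 140.0, 169 and 153 in Col.

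AT4G33666 had 2232, 4953 and 5017 in AtGATA2ox, 118, 92.8 and 173 in bri1-116 and 328, 388 and 552 in Col. AT1G20070 had 1561, 1089 and 1463 in AtGATA2ox, 124, 67.4 and 161 in bri1-116 and 416, 299 and 399 in Col. Both separated all 3 genotypes, with AtGATA2ox highest and bri1-116 lowest, as the definition asks. AT3G05150, of the sugar transporter branch of the major facilitator superfamily, had 4523, 4337 and 4067 in AtGATA2ox, 265, 475 and 345 in bri1-116 and 1481, 1446 and 1071 in Col. AT1G25400 had 3900.1, 6940.1 and 5739.5 in AtGATA2ox, 148, 109 and 129.8 in bri1-116 and 322, 564 and 403 in Col, and its differences were 3.68 ± 0.24 in AtGATA2ox and -1.70 ± 0.24 in bri1-116. The sugar transporter gene moved by about as much in each genotype (1.71 ± 0.20 in AtGATA2ox and -1.90 ± 0.20 in bri1-116), while AT1G25400 differed more in AtGATA2ox.

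**Figure D2:**
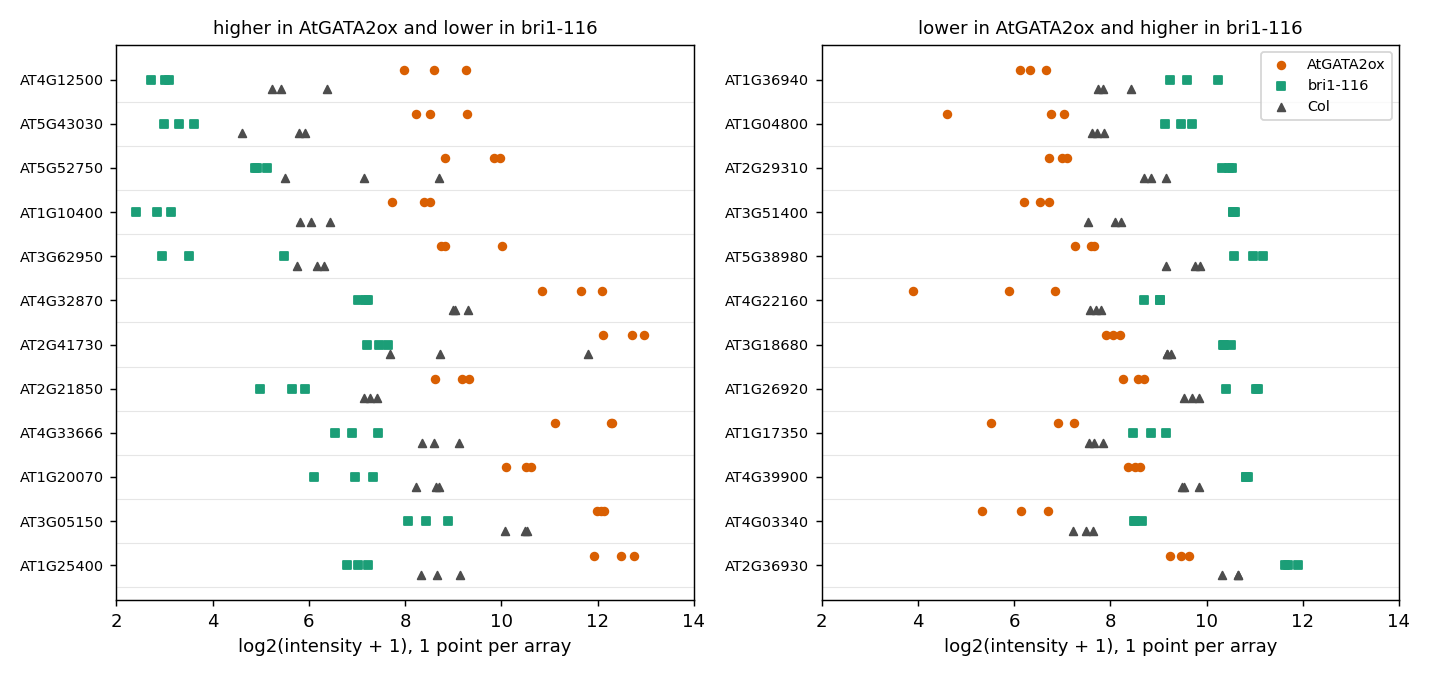
Points are log2(intensity + 1) on single arrays (x axis) for the 12 genes of each direction with the largest smaller difference (rows), in AtGATA2ox (circles), bri1-116 (squares) and Col (triangles). In the left panel AtGATA2ox lies right of Col and bri1-116 left of it, in the right panel the order is turned, and AT2G41730 and AT5G52750 show the widest spread of Col arrays.

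In the other direction, AT1G36940 led with 69, 79.6 and 100 in AtGATA2ox, 604, 775 and 1198 in bri1-116 and 341, 215 and 229 in Col. AT1G04800, of a glycine-rich protein type, had 108, 131 and 23.3 in AtGATA2ox, 833, 708 and 559 in bri1-116 and 233, 211 and 196 in Col. The third AtGATA2ox array of AT1G04800 was far below the rest, and the AtGATA2ox difference of -1.60 came to -0.84 without it. The bri1-116 call of AT1G04800 was lost without any one of the bri1-116 or Col replicates, and its AtGATA2ox call without any one of the Col replicates. AT2G29310, a short-chain dehydrogenase with a nucleotide-binding Rossmann fold, had 135, 105 and 127 in AtGATA2ox, 1419, 1282 and 1483 in bri1-116 and 414, 458 and 567 in Col. Its arrays were tightly grouped in every genotype, with differences of -1.96 ± 0.19 in AtGATA2ox and 1.55 ± 0.19 in bri1-116.

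AT3G51400 had 72.9, 105 and 91.4 in AtGATA2ox, 1496, 1506 and 1553 in bri1-116 and 275, 298 and 186 in Col, the largest bri1-116 difference of the 107 genes (-1.47 ± 0.23 in AtGATA2ox and 2.61 ± 0.23 in bri1-116). AT5G38980 had 202, 153 and 193 in AtGATA2ox, 2316, 1998 and 1529.8 in bri1-116 and 572, 866 and 934 in Col. AT4G22160 had 13.9, 58.6 and 114 in AtGATA2ox, 526, 526 and 416 in bri1-116 and 223, 206 and 191 in Col. The AtGATA2ox arrays of AT4G22160 were spread from the control range upward, and its difference of -2.15 there came to -1.32 without AtGATA2ox replicate 1 and to -2.80 without AtGATA2ox replicate 3, while its bri1-116 difference did not pass. AT3G18680, which encodes a UMP kinase of plastids that acts in pyrimidine nucleotide supply, had 265, 238 and 295 in AtGATA2ox, 1313, 1305 and 1448 in bri1-116 and 614, 578 and 582 in Col. Its differences were of like size in both genotypes (-1.15 ± 0.16 in AtGATA2ox and 1.19 ± 0.16 in bri1-116).

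AT1G26920 had 379.5, 413 and 308 in AtGATA2ox, 2141, 2087 and 1359 in bri1-116 and 919, 827 and 743 in Col. AT1G17350, of a type known to assist assembly of respiratory complex I, had 152, 120.1 and 45.1 in AtGATA2ox, 573, 462 and 356 in bri1-116 and 187, 231 and 201 in Col. AT4G39900 had 328, 392 and 364 in AtGATA2ox, 1864, 1801 and 1815 in bri1-116 and 911, 734 and 717 in Col. In each of these 3 genes the bri1-116 arrays were above, and the AtGATA2ox arrays below, every Col array, as the definition asks. The bri1-116 difference of AT1G17350 did not pass. AT4G03340, a glycosyltransferase of the core-2/I-branching type, had 69.6, 39.5 and 103 in AtGATA2ox, 403, 365 and 357 in bri1-116 and 179, 148 and 197 in Col. Its bri1-116 call was lost without any one of the bri1-116 or Col replicates (limma adjusted p of 0.094 to 0.17). AT2G36930, of the C2H2 zinc finger type, had 708, 796 and 607 in AtGATA2ox, 3318, 3158 and 3838 in bri1-116 and 1621, 1275 and 1609 in Col. The zinc finger gene was the brightest of these 12 genes in bri1-116.

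The gene tables used here give locus codes without product names, so the families named in the text are general knowledge of the Arabidopsis genome, and the groups below were put together after the genes were known. The number of family members on the array was not counted, and no group was tested. For the largest group of each direction the median is given, to be read beside the median over all probe sets, which was -0.17 in AtGATA2ox against Col and -0.02 in bri1-116 against Col.

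The largest family recognised among the genes higher in AtGATA2ox and lower in bri1-116 held 6 genes with C1 domains, cysteine- and histidine-rich modules that bind zinc and are known in other proteins to bind lipids, and no such gene was recognised in the other direction. Their log2 differences ran from 1.32 to 3.23 in AtGATA2ox (median 2.00) and from -2.46 to -0.67 in bri1-116 (median -1.57). Besides AT5G43030 and AT2G21850, AT5G59940 had 1903, 1514 and 1927 in AtGATA2ox, 109.9, 187 and 84.3 in bri1-116 and 356, 305 and 291 in Col. AT4G01920 had 444, 372 and 348 in AtGATA2ox, 47.8, 61.8 and 65.5 in bri1-116 and 104, 103 and 98.4 in Col. AT2G44380 had 969, 1143 and 2830.1 in AtGATA2ox, 244, 223 and 185 in bri1-116 and 303, 412 and 326 in Col. In these 3 genes Col lay nearer to bri1-116 than to AtGATA2ox, and the bri1-116 differences of AT4G01920 (adjusted p = 0.11 in limma) and AT2G44380 (0.21) did not pass the test. AT3G07000 had 349, 219 and 329 in AtGATA2ox, 22.5, 64.2 and 5.4 in bri1-116 and 181, 131 and 66.9 in Col, and its AtGATA2ox difference of 1.32 ± 0.70 did not pass the test. Its bri1-116 mean was within the range of the Bacillus controls, and the difference of -2.46 there came to -1.59 without bri1-116 replicate 3 (adjusted p = 0.089 in limma) and to -3.26 without bri1-116 replicate 2. The call was also lost without bri1-116 replicate 1, Col replicate 1 or Col replicate 2.

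Genes of transport and membrane proteins formed several small groups in the same direction. The major facilitator genes were AT3G05150, described above, AT5G54860 and AT5G14120. AT5G54860 had 469, 1774 and 627 in AtGATA2ox, 149, 211 and 201 in bri1-116 and 255, 405 and 377 in Col. AT5G14120 had 8739.5, 11277 and 15996 in AtGATA2ox, 3682, 3037 and 3966 in bri1-116 and 6755, 7236 and 5997 in Col. AT5G54860 stood out by its second AtGATA2ox array and did not pass in bri1-116, while the arrays of AT5G14120 were bright in every genotype. The nucleotide-sugar transporter genes, whose products carry building blocks of wall polysaccharides into the Golgi, were AT5G04160, with 1231, 1031 and 1052 in AtGATA2ox, 324, 334 and 295 in bri1-116 and 517, 429.5 and 509 in Col, and AT5G11230. AT5G11230 had 481, 388 and 315 in AtGATA2ox, 184, 134 and 142 in bri1-116 and 225, 224 and 303 in Col, and neither of its differences (0.64 ± 0.25 in AtGATA2ox and -0.70 ± 0.25 in bri1-116) passed the test.

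Proteins with the SPFH domain, which are known to sit at membranes, were encoded by AT5G64870 and AT1G69840. The flotillin-like gene AT5G64870 had 189.7, 263 and 340.0 in AtGATA2ox, 54.8, 29.5 and 45.6 in bri1-116 and 136, 164 and 148 in Col. AT1G69840 had 2536, 4145 and 3449 in AtGATA2ox, 1162, 1122 and 1052 in bri1-116 and 2374, 2174 and 1528 in Col. Both had small differences in AtGATA2ox (0.78 and 0.73) and larger ones in bri1-116 (-1.80 and -0.84), and the AtGATA2ox difference of AT5G64870 did not pass. The C2 domain genes, whose products bind lipids in the presence of calcium, had the reverse balance. AT4G34150 had 4127, 4934 and 5126 in AtGATA2ox, 712, 628 and 1132 in bri1-116 and 1191, 1294 and 1398 in Col. Its bri1-116 call was lost without bri1-116 replicate 1 or 2 or any one of the Col replicates (limma adjusted p of 0.051 to 0.14). AT5G12970 had 546, 247 and 345 in AtGATA2ox, 58.3, 54.3 and 30.2 in bri1-116 and 63.3, 72.1 and 73.1 in Col, with differences of 2.36 and -0.59, and the bri1-116 one did not pass.

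Neighbouring genes for GNAT-type acetyltransferases, AT2G32020 and AT2G32030, differed in the same direction. AT2G32020 had 901, 974 and 903 in AtGATA2ox, 69.6, 95.5 and 79.4 in bri1-116 and 146, 220.3 and 517 in Col. AT2G32030 had 284, 360.3 and 313 in AtGATA2ox, 31.1, 50.6 and 75 in bri1-116 and 82, 136 and 138 in Col. Neighbours of one family can share sequence, and whether their probe sets share signal was not tested. The bri1-116 difference of AT2G32030 did not pass (limma adjusted p = 0.054). The only other adjacent pair, AT1G67860 and AT1G67865, went the other way. AT1G67860 had 75.5, 93 and 76.3 in AtGATA2ox, 469, 472 and 322 in bri1-116 and 249, 244 and 166 in Col. AT1G67865 had 99.8, 47.1 and 102 in AtGATA2ox, 437, 501 and 419 in bri1-116 and 238, 244 and 209 in Col. In bri1-116 AT1G67865 did not pass (limma adjusted p = 0.051). The bri1-116 call of AT1G67860 was lost without bri1-116 replicate 1 or 2 or any one of the Col replicates (limma adjusted p of 0.066 to 0.17). Another pair, 2 genes apart, was split between the directions (AT2G39650 higher and AT2G39670 lower in AtGATA2ox, with no call for AT2G39670 in bri1-116), and the genes lay on all 5 chromosomes.

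Further genes higher in AtGATA2ox, chosen after their values were seen, are given by mean intensity (± SD, n = 3 arrays each). AT5G19110, of the aspartyl protease family, had the largest AtGATA2ox difference of all, with 8066, 4148 and 7521 in AtGATA2ox, 106, 71.9 and 150.5 in bri1-116 and 174, 225 and 199.7 in Col (4.98 ± 0.29 in AtGATA2ox and -0.91 ± 0.29 in bri1-116). Its bri1-116 call was lost without bri1-116 replicate 1 or 2, any Col replicate, or AtGATA2ox replicate 1 or 3 (limma adjusted p of 0.0503 to 0.19). AT3G19390, a papain-type cysteine protease with a granulin repeat, averaged 2851 ± 1155 in AtGATA2ox, 310.3 ± 27.2 in bri1-116 and 699 ± 154 in Col. AT2G18690 averaged 13875 ± 2686 in AtGATA2ox, 972 ± 211 in bri1-116 and 5471 ± 3144 in Col. It was the brightest of the 85 genes in AtGATA2ox. AT3G55840, of the Hs1pro-1 family, averaged 694 ± 384 in AtGATA2ox, 33.2 ± 26.1 in bri1-116 and 229.6 ± 23.9 in Col, and its AtGATA2ox difference did not pass. Its bri1-116 mean was within the range of the Bacillus controls, so the size of the difference there is not exact.

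Lipid-related genes included AT1G02660, a class 3 lipase type, which averaged 1930.1 ± 517 in AtGATA2ox, 296 ± 94.6 in bri1-116 and 645 ± 104 in Col. AT3G25610, a P-type ATPase of the lipid flippase branch, averaged 748 ± 177 in AtGATA2ox, 126 ± 11 in bri1-116 and 369 ± 202 in Col. The flippase gene's AtGATA2ox difference of 1.15 came to 0.69 without Col replicate 1 (adjusted p = 0.1 in limma). Its Col arrays were spread more widely than its bri1-116 arrays. Nucleotide metabolism was present through AT1G30820, which encodes a CTP synthase, at 1662 ± 507 in AtGATA2ox, 264 ± 95.2 in bri1-116 and 729.9 ± 39.7 in Col. AT1G14240, of the GDA1/CD39 family of nucleotide phosphatases, averaged 804 ± 148 in AtGATA2ox, 124 ± 22.6 in bri1-116 and 315 ± 96.3 in Col. AT3G49160, of the pyruvate kinase family, averaged 480.0 ± 257 in AtGATA2ox, 67.5 ± 30.3 in bri1-116 and 169.9 ± 27.3 in Col. All of these were above Col in AtGATA2ox and below it in bri1-116 on every array, as the definition asks of every gene. Both calls of AT3G49160 were lost without any one of the Col replicates. Its AtGATA2ox call was also lost without AtGATA2ox replicate 2, and its bri1-116 call without bri1-116 replicate 1 or 3. AT3G25610 lost both calls without Col replicate 2. Its AtGATA2ox call was also lost without AtGATA2ox replicate 2, and its bri1-116 call without bri1-116 replicate 2 or Col replicate 3.

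Redox and oxygen-using enzymes were AT4G20830, a flavoprotein of the berberine bridge enzyme type, AT5G35735, a membrane protein with a cytochrome domain, and AT5G05600, a 2-oxoglutarate-dependent oxygenase. AT4G20830 averaged 4436 ± 685 in AtGATA2ox, 1001 ± 122 in bri1-116 and 2334 ± 1003 in Col. AT5G35735 averaged 3371 ± 662 in AtGATA2ox, 458 ± 34.7 in bri1-116 and 1455 ± 410.4 in Col. AT5G05600 averaged 1561 ± 184 in AtGATA2ox, 195 ± 39.5 in bri1-116 and 312 ± 99.6 in Col. The oxygenase gene differed mainly in AtGATA2ox (2.36 and -0.65), and its bri1-116 difference did not pass. Genes of stress-related protein types included AT2G46140 and AT2G29500. AT2G46140, named LEA27 in the gene table for its late embryogenesis abundant type, averaged 1067 ± 38.6 in AtGATA2ox, 169.5 ± 19.2 in bri1-116 and 485 ± 49.2 in Col. AT2G29500, a small heat shock protein gene, had 371, 4678 and 489.9 in AtGATA2ox, 67.5, 66.9 and 85.7 in bri1-116 and 123, 97.9 and 224 in Col, and its AtGATA2ox difference of 2.76 came to 1.61 without AtGATA2ox replicate 2. The bri1-116 difference of AT2G29500 was -0.92, which did not pass (limma adjusted p = 0.48), and -0.58 without Col replicate 3.

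The largest group recognised among the genes lower in AtGATA2ox and higher in bri1-116 held 6 genes of ribosomal protein families. None of these families was recognised in the other direction. Such families hold the structural parts of the ribosome, but AT1G25260 among the 6 is of a type that acts in ribosome assembly. The log2 differences of the 6 genes ran from -1.64 to -0.61 in AtGATA2ox (median -0.78) and from 0.58 to 1.05 in bri1-116 (median 0.88). AT2G37190, for a cytosolic large-subunit protein, had 2138, 1517 and 1137 in AtGATA2ox, 8057, 7141 and 7825 in bri1-116 and 4238, 3524 and 4939 in Col. AT3G14600, for another cytosolic large-subunit protein, had 1276, 1341 and 1008 in AtGATA2ox, 3648, 3856 and 3832 in bri1-116 and 1979, 1729 and 1783 in Col. Within bri1-116 the arrays of both genes were close together. AT2G17360, for a cytosolic small-subunit protein, had 1200.4, 1068 and 996 in AtGATA2ox, 2663, 2587 and 2454 in bri1-116 and 1765, 1583 and 1669 in Col. AT3G13580, for a large-subunit protein, had 436, 429 and 342 in AtGATA2ox, 882, 1031 and 1618 in bri1-116 and 570.4, 642 and 621 in Col. The shifts of AT2G17360 were equal and small (-0.62 ± 0.13 in AtGATA2ox and 0.62 ± 0.13 in bri1-116).

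AT1G25260, whose product resembles a large-subunit protein and is known from yeast to act in ribosome assembly, had 1017, 818 and 622 in AtGATA2ox, 3055, 2974 and 2792 in bri1-116 and 1787, 1378 and 1458 in Col. AT2G44065, of an organelle ribosomal protein type, had 155, 158 and 71.8 in AtGATA2ox, 516, 759.5 and 469 in bri1-116 and 362, 421 and 357 in Col. The bri1-116 difference of AT2G44065 (0.58 ± 0.30) did not pass. The AtGATA2ox call of AT3G13580 was lost without any one of the AtGATA2ox or Col replicates or bri1-116 replicate 2 (limma adjusted p of 0.051 to 0.14), and the bri1-116 call of AT2G37190 without bri1-116 replicate 1 or Col replicate 2. Genes whose products help to make ribosomes went the same way. AT5G20600, of a family that processes ribosomal RNA precursors, had 55.9, 37.3 and 33.5 in AtGATA2ox, 396, 419 and 416 in bri1-116 and 266, 221 and 249 in Col. AT2G34750, for an initiation factor of RNA polymerase I, had 636, 556 and 724 in AtGATA2ox, 1833, 1659 and 1567 in bri1-116 and 1217, 876 and 930.3 in Col. AT3G13180, of an RNA methyltransferase family, had 175, 91.3 and 86 in AtGATA2ox, 356, 438 and 463 in bri1-116 and 235, 222 and 212 in Col. The AtGATA2ox arrays of AT5G20600 were all within the range of the Bacillus controls, so its difference there has no exact size, and the bri1-116 differences of AT5G20600 and AT3G13180 did not pass. Their AtGATA2ox arrays were all below Col, as the definition asks. AT3G46210, of a subunit type of the RNA-degrading exosome, averaged 55.7 ± 38.1 in AtGATA2ox, 241 ± 54.2 in bri1-116 and 136 ± 12.2 in Col, with an AtGATA2ox mean in the control range and no call in bri1-116. The control probe set for 25S ribosomal RNA ranged from 110 to 502.8 in AtGATA2ox, 107.7 to 8763 in bri1-116 and 143 to 194 in Col, and its part in these results was not tested.

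**Figure D3:**
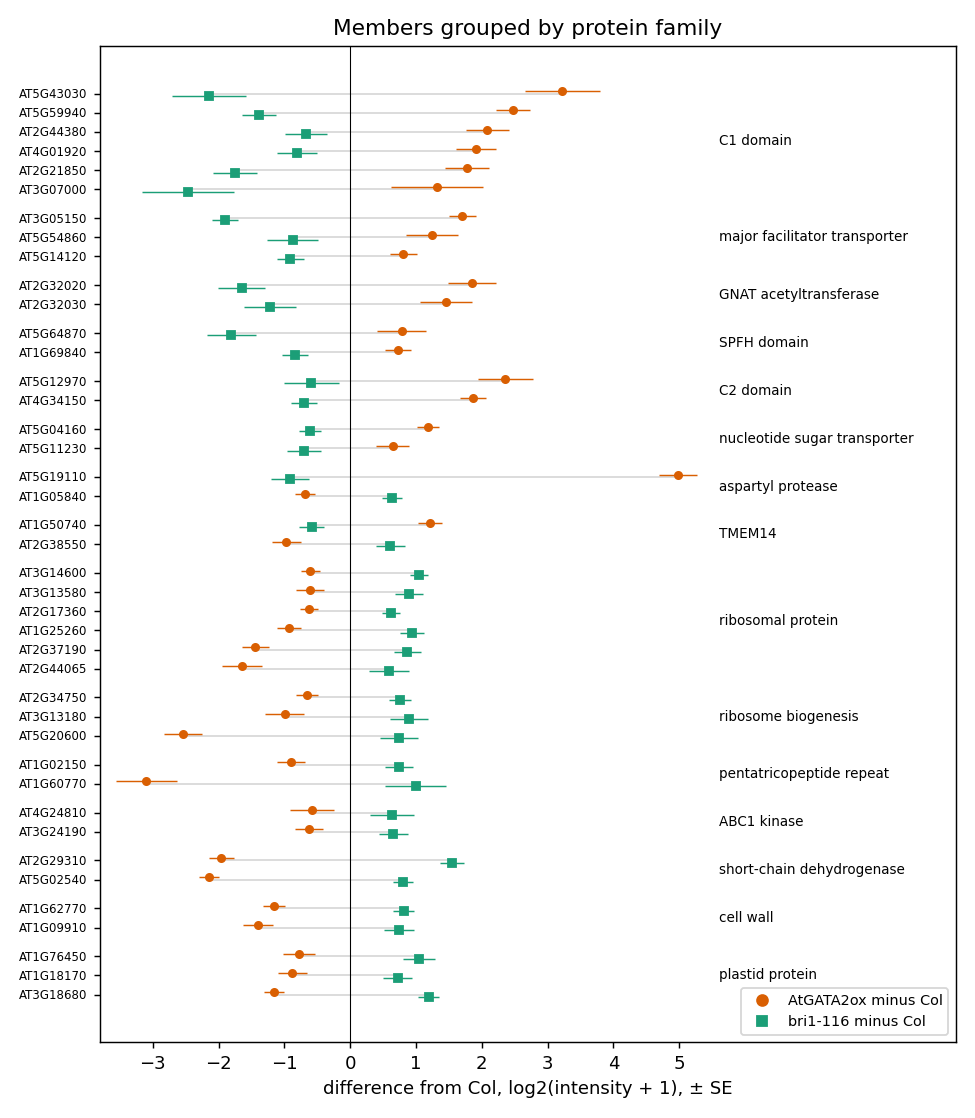
Mean differences from Col on log2(intensity + 1) with limma's SE (x axis) are drawn for AtGATA2ox (circles) and bri1-116 (squares), 1 row per gene, grouped by protein family. The 6 genes with C1 domains have circles on the right, and the 6 genes of ribosomal protein families have circles on the left. The aspartyl protease and TMEM14 groups hold 1 gene of each direction.

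Plastid and nucleotide genes were also found on that side. AT1G76450, with a PsbP domain known from photosystem II, had 100, 119 and 152 in AtGATA2ox, 449.7, 435 and 422 in bri1-116 and 220.4, 205 and 205 in Col. AT1G18170, an FKBP-type isomerase, had 178, 201 and 137 in AtGATA2ox, 476, 587 and 491 in bri1-116 and 353, 294 and 294 in Col. Together with the UMP kinase gene they were 3 plastid genes with AtGATA2ox differences of -1.15 to -0.78. The ABC1-like kinase genes AT3G24190 and AT4G24810 had smaller ones. AT3G24190 had 166, 202 and 192 in AtGATA2ox, 452, 393 and 528 in bri1-116 and 272, 339.9 and 258 in Col, and its bri1-116 difference did not pass. AT4G24810 had 112, 77.3 and 72.9 in AtGATA2ox, 207, 239 and 161 in bri1-116 and 156, 118 and 115 in Col, and neither of its differences (-0.58 and 0.63) passed. AT2G35040, for a bifunctional enzyme of purine synthesis, averaged 143 ± 16.6 in AtGATA2ox, 530.1 ± 29.3 in bri1-116 and 334 ± 28.8 in Col. The bri1-116 calls of AT2G35040 and AT1G18170 were lost without any one of the bri1-116 or Col replicates (limma adjusted p of 0.064 to 0.16).

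Pentatricopeptide repeat proteins bind organelle RNA, and AT1G60770 had 12.9, 33.6 and 10.8 in AtGATA2ox, 373, 306 and 243 in bri1-116 and 137, 165 and 154 in Col. Its AtGATA2ox arrays were all within the range of the Bacillus controls, so its difference there has no exact size, and its bri1-116 difference did not pass. AT1G02150, of the same repeat type, had 360.2, 561 and 369.5 in AtGATA2ox, 1273, 1278 and 1402 in bri1-116 and 894, 584 and 932 in Col. The short-chain dehydrogenase gene AT5G02540 had 479.6, 593 and 502 in AtGATA2ox, 4154, 3969.7 and 4008 in bri1-116 and 2066, 2777 and 2154 in Col. It differed by -2.14 ± 0.15 in AtGATA2ox and 0.81 ± 0.15 in bri1-116, with small spread. Genes for wall proteins were AT1G62770, an inhibitor type of invertases and pectin methylesterases, and AT1G09910, a rhamnogalacturonate lyase type. AT1G62770 had 1058, 1235 and 1340.3 in AtGATA2ox, 4659, 4974 and 4530.5 in bri1-116 and 2133, 2863 and 3162 in Col. AT1G09910 had 250.0, 138 and 156 in AtGATA2ox, 723, 723 and 897 in bri1-116 and 443, 455 and 494 in Col. The bri1-116 call of AT1G09910 was lost without any one of the bri1-116 or Col replicates (limma adjusted p of 0.086 to 0.16).

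Among the genes on that side with a known regulatory type were the following. AT3G57800, of the bHLH type, averaged 412 ± 177 in AtGATA2ox, 1550.4 ± 101 in bri1-116 and 937 ± 241 in Col, and its bri1-116 difference of 0.75 did not pass (limma adjusted p = 0.081). AT4G16750, of the ERF/AP2 type, averaged 177 ± 39.4 in AtGATA2ox, 472 ± 82.9 in bri1-116 and 262 ± 17.5 in Col, and its AtGATA2ox difference did not pass. AT1G47400, for a short peptide known from iron deficiency signalling, had 71.9, 31.7 and 75.2 in AtGATA2ox, 471, 330.3 and 966 in bri1-116 and 126, 75.7 and 107 in Col. Its AtGATA2ox mean was within the range of the Bacillus controls and its difference there did not pass, while its bri1-116 difference was 2.39. AT5G15950, for an S-adenosylmethionine decarboxylase of polyamine synthesis, averaged 112 ± 21 in AtGATA2ox, 322 ± 30.1 in bri1-116 and 204 ± 73.9 in Col, and neither difference passed.

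Members of a family could also go opposite ways. The aspartyl protease gene AT1G05840 had 358, 410.5 and 353 in AtGATA2ox, 959.8, 956 and 896 in bri1-116 and 621, 553 and 629.8 in Col, in contrast to AT5G19110. In the TMEM14 family of small membrane proteins, AT1G50740 had 4094, 6896 and 5803 in AtGATA2ox, 1389.8, 1600.5 and 1745 in bri1-116 and 2031, 2479 and 2599.5 in Col. AT2G38550 had 356, 278 and 252 in AtGATA2ox, 1047, 999.9 and 647 in bri1-116 and 634, 612 and 487 in Col. The TMEM14 genes thus differed by 1.22 and -0.58 and by -0.97 and 0.61 in AtGATA2ox and bri1-116, in that order of genotypes, and neither bri1-116 difference passed (limma adjusted p = 0.054 and 0.082).

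Near the size limit of 0.58, the last genes inside were AT1G50740 (smaller difference 0.58), AT5G12970 (0.59), AT4G24810 (0.58) and AT2G44065 (0.58). The first outside were AT4G34630 (0.57) and AT3G15430 (0.57) on the side higher in AtGATA2ox, and AT4G32910 (0.58, just under the limit) and AT3G06440 (0.58, likewise) on the other. These values show no gap at the limit. A second probe set was present for 4 genes, of which AT5G44820 and AT1G18390 did not pass in AtGATA2ox and AT2G20210 did not pass in bri1-116 by the first. For AT5G44820 it gave 0.56 and -0.42 in AtGATA2ox and bri1-116, where the first gave 1.70 and -2.46, and for AT1G18390 it gave 0.43 and -0.81, where the first gave 1.06 and -1.41. For AT5G63200 it gave -0.95 and -0.24, where the first gave -0.77 and 0.93, and for AT2G20210 it gave -2.09 and 0.00, where the first gave -1.55 and 0.94. The second probe sets thus kept the AtGATA2ox sign in all 4 genes, but none of them met the definition. In bri1-116 the arrays of all 4 overlapped Col and no difference passed the test. Those of AT5G44820 and AT1G18390 overlapped Col in AtGATA2ox as well.

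The order of arrays within a genotype was uneven over these genes. Col replicate 1 was the lowest Col array for 52 of the 85 genes higher in AtGATA2ox (61.2%), against 33.4% of the other locus-code probe sets. It was the highest Col array for 60 of the 107 genes lower in AtGATA2ox (56.1%, against 32.3% of the others). Likewise AtGATA2ox replicate 1 was the lowest AtGATA2ox array for 49 of the 85 (57.6%, against 26.4% of the others). Without Col replicate 1 the definition took 114 probe sets in place of 85 and kept 80 of the 85, and without AtGATA2ox replicate 1 it took 152 in place of 107 and kept 102 of the 107. Over the 9 ways to leave out 1 array, 75 to 82 of the 85 and 91 to 102 of the 107 were kept. Arrays that do not overlap cannot come to overlap when 1 is left out. A chosen gene could thus be lost only by the size or level limit, so these counts are no support for the choice. What these arrays share was not tested, since the labels give no batch. In the series records, however, the AtGATA2ox arrays form a block apart from the arrays of Col and the mutant, which are numbered in a single run. Every difference of AtGATA2ox from the other genotypes is thus also a difference between these blocks. Whether the blocks were processed apart is not given, and the part of the blocks in the results was not tested. Calls lost without 1 array are given in the text for some genes only, so the other genes named are not shown to keep theirs.

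Scaling moved more genes than any single array did. The deposited arrays all had nearly the same trimmed mean, while the added hybridisation controls had a mean log2 intensity of 10.90 to 11.31 in AtGATA2ox, 10.39 to 10.72 in bri1-116 and 10.04 to 10.21 in Col. Scaling to these controls lowered the AtGATA2ox differences by 1.05 and the bri1-116 differences by 0.47, at the median of all probe sets. Of the 85 genes higher in AtGATA2ox, 62 were then still above Col, and 23 were below it, among them AT4G20830, AT5G14120, AT5G64870, AT1G69840 and AT5G11230. In bri1-116 all 85 stayed below Col, and all 107 genes kept both signs. With the sizes asked for, 25 of the 85 and 19 of the 107 met the definition with that scaling, 69 and 59 did after quantile normalisation, and 61 of each after median centring. Under both of these, all 192 kept their signs. Actin controls at the 3′ and 5′ end of the transcript, whose ratio grows with shorter cDNA, had a ratio of 3.66 to 5.45 in AtGATA2ox, 2.86 to 4.88 in bri1-116 and 1.81 to 2.03 in Col, and its part in the results was not tested.

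**Figure D4:**
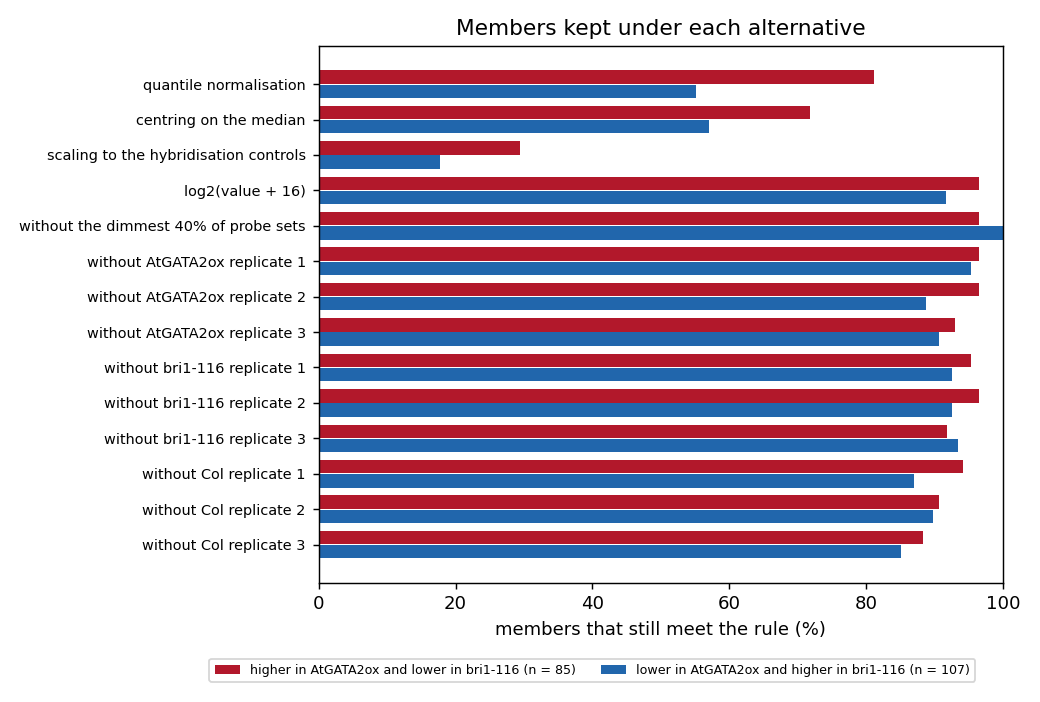
Bars give the percentage of the 85 genes higher in AtGATA2ox (red) and of the 107 genes lower in AtGATA2ox (blue) that still met the definition under each alternative (rows). Scaling to the hybridisation controls kept 29.4% and 17.8%, and each removal of 1 array kept 85.0% or more. Such a removal cannot make arrays overlap, so a high percentage there is largely built in.

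Markers of the tissue were few among named probe sets. A listed gene is called measured here only where a probe set was named for it. The annotation does not list 8730 probe sets, so the array may hold others of these genes unnamed. PORB, a protochlorophyllide reductase of etioplasts, had 11553, 10094 and 8014 in AtGATA2ox, 14201, 14366 and 16483 in bri1-116 and 7723, 5493 and 6679 in Col, so the seedlings of all genotypes held its transcript. Of 5 root markers 2 were measured, EXPA7 and EXPA18, and their summed level was 36.8 to 139.2 in AtGATA2ox, 87.1 to 101.4 in bri1-116 and 94 to 132.9 in Col. EXPA18 alone was lower in AtGATA2ox, with 29.6, 3.7 and 15.3 in AtGATA2ox, 26.8, 35.4 and 66 in bri1-116 and 71, 103 and 67.6 in Col (-2.59, limma adjusted p = 0.02, at levels partly within the control range), and its part in the results was not tested. Of 3 stomatal markers 1 was measured (48.5 to 119.4, 74.1 to 99.5 and 9.5 to 70.1 in the same order), and none of 5 seed storage markers. In whole seedlings, fewer cells of a type and less RNA per cell cannot be told apart. AtGATA2 and BRI1 had 0 named probe sets, so the labels were not checked on them. Of 7 genes known to be induced by brassinosteroid 1 was measured, the expansin gene EXPA8, with 1170.1, 1277 and 2411 in AtGATA2ox, 264, 386 and 366 in bri1-116 and 5742, 6777 and 7026 in Col. EXPA8 fell in both comparisons with Col (limma adjusted p = 3.2e-05 in AtGATA2ox and 3.3e-07 in bri1-116), unlike the genes above. None of the 9 genes of brassinosteroid synthesis and inactivation, 7 of its signalling and 7 light-induced genes listed for this purpose had a named probe set.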

How the data were processed

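RNA from 10 µg of total RNA per sample was labelled with biotin and hybridised to Affymetrix arrays, 3 per genotype. The authors deposited 1 linear intensity for each probe set on each array, between 0.1 and 61453.6. MAS5 and GCRMA were used, per the submitters' processing notes, which give neither versions nor the program behind the intensities. Build and detection calls were not used here. Tested on the values, each array's mean without its lowest and highest 2% was 499.71 to 499.79, so a shift shared by many probe sets pushes the rest in reverse. Of 22810 probe sets, 64 array controls were left out of tests. Names came from the platform annotation, and all 192 loci were found in the RefSeq table of assembly TAIR10.1, used for names and gene order only.

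Intensities were used as log2(value + 1) without further normalisation, and a fold change on that scale is not exact for dim probe sets. One limma fit (version 3.58.1, R 4.3.3; eBayes with a trend, 6 residual degrees of freedom) gave all comparisons, adjusted by Benjamini-Hochberg, and was tested on simulated data. No label names separate cultures, so its p-values rest on array-to-array spread that may be technical, and 3 arrays per genotype limit the precision. The genes, groups and lists were chosen with earlier results of these data known. Values on every array were to be given for the 12 genes of each direction with the largest smaller difference, for genes that share a product family and at the size limit; product names were not in the tables, so families came from general knowledge, and other genes named were chosen after their values were seen. Promoter motifs were not analysed here. Alternatives were other scalings, a pseudocount of 16, removal of dim probe sets, eBayes without a trend, a replicate block, other size and level limits, and leaving out each array.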

Additional observations from a re-analysis of the deposited data

How the results depend on the processing

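The sets held 85 genes higher and 107 lower in AtGATA2ox. Scaling to the hybridisation controls gave 43 in place of the 85, a log2 size of at least 1 gave 45 and 15, and a mean of 500 or more gave 57 in place of the 107. Leaving out 1 array gave 82 to 114 and 109 to 152. With scaling to the hybridisation controls the AtGATA2ox differences reversed to -0.028 for AT4G20830, -0.24 for AT5G14120, -0.27 for AT5G64870, -0.32 for AT1G69840 and -0.40 for AT5G11230. The shift of every array by its controls is the alternative's own construction, and which scaling is closer to the RNA content was not tested. Among the alternatives run, no other one reversed a difference of the genes named here. For the chosen genes only the other scalings could have done so. Their arrays do not overlap those of Col, so leaving out an array or another pseudocount cannot turn a sign. The remaining alternatives do not change the differences. Over all probe sets, AtGATA2ox against Col had 6486 calls, 2211 higher and 4275 lower, against 12467 (421 and 12046) after scaling to those controls and 3465 and 2501 after median centring. Higher calls made up 34.1% of them, against 47.1% after quantile normalisation, 58.1% after centring and 3.38% after scaling to the controls. In bri1-116 against Col there were 3431 calls, 1612 higher and 1819 lower, against 2104 (976 and 1128) with eBayes without a trend and 479 higher and 3691 lower with scaling to the controls. The higher share of 47% there was 59.9% with centring on the median and 11.5% with scaling to the controls. AtGATA2ox against bri1-116 had 2172 higher and 3914 lower (35.7% higher), against 936 and 7743 (10.8%) with scaling to the controls, and 50% higher with centring on the median. Leaving out 1 array gave 4794 to 6641 calls (1725 to 2269 higher and 3069 to 4456 lower) in AtGATA2ox against Col and 4582 to 6316 (1775 to 2173 higher and 2807 to 4227 lower) in AtGATA2ox against bri1-116. It gave 2152 to 4115 (1055 to 1900 higher and 1097 to 2215 lower) in bri1-116 against Col, lowest without Col replicate 2. Over all probe sets, same-numbered arrays did not deviate together (correlations of -0.018 to 0.020 over 9 pairs). Those correlations do not settle a pairing among the chosen genes. Replicate 3 was the highest array of its genotype for 45.9% of the 85 in Col, 44.7% in AtGATA2ox and 40% in bri1-116. The other locus-code probe sets had 26.6%, 30.8% and 28.6% in the same order. Whether the numbers pair the samples was not tested further. The fit with the replicate block gave 6460 calls in AtGATA2ox against Col, 3439 in bri1-116 against Col and 6036 in AtGATA2ox against bri1-116. Dim probe sets limit what can be read, since 9 genes in bri1-116 and 11 in AtGATA2ox had means within the range of the Bacillus controls.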

Other observations

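Probe sets for genes with a symbol met the same numeric definition in 39 cases, 16 higher and 23 lower in AtGATA2ox, which is 2.47% of the 1580 such probe sets, and so did 187 probe sets (2.14%) that the annotation does not list. They too were chosen by these arrays, and the following values were picked as the largest of each direction or for their family. ASPGB1, an asparaginase gene, had 964, 1626 and 2272 in AtGATA2ox, 74.2, 159 and 158 in bri1-116 and 212, 423 and 889 in Col. NDB2, for an alternative NADH dehydrogenase of mitochondria, had 1358, 1794 and 1722 in AtGATA2ox, 203, 294 and 212 in bri1-116 and 438, 597 and 827 in Col. SWEET2, for a sugar transporter of the SWEET family, had 3052, 4665 and 7337 in AtGATA2ox, 285, 228 and 324 in bri1-116 and 675, 1084 and 473 in Col. All 3 were above Col in AtGATA2ox and below it in bri1-116 on every array, as the definition asks. On the other side, DPE1, for a plastid enzyme of starch breakdown, had 156, 49 and 59.1 in AtGATA2ox, 944, 961 and 968 in bri1-116 and 359.8, 308 and 330.0 in Col. BGLU44, a beta-glucosidase gene, had 145, 176 and 112 in AtGATA2ox, 818, 1137 and 1259 in bri1-116 and 409.5, 426 and 282 in Col. FHL, whose product carries phytochrome A into the nucleus, had 180.2, 139 and 102 in AtGATA2ox, 1036, 791 and 935 in bri1-116 and 397, 289 and 299 in Col. FHL was thus low in AtGATA2ox and high in bri1-116, with log2 differences of -1.24 ± 0.24 in AtGATA2ox and 1.49 ± 0.24 in bri1-116.

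PRA1 genes encode small membrane proteins of vesicle traffic, and 4 of 9 with a probe set named by symbol met the definition, 3 higher and 1 lower in AtGATA2ox. The other 5 did not meet it, and 2.47% of all probe sets with a symbol did. The family was picked because these arrays chose some of its genes, so the count is not read as a result. PRA1.B4 had 6929.7, 6728 and 7258 in AtGATA2ox, 1002, 1114 and 1222 in bri1-116 and 1916, 1839.5 and 2005 in Col. PRA1.B6 had 3882, 2926 and 4016 in AtGATA2ox, 651, 654 and 579.6 in bri1-116 and 2460.4, 2125 and 1814 in Col. PRA1.G2 had 342, 409 and 786 in AtGATA2ox, 168, 213 and 164 in bri1-116 and 316, 262 and 294 in Col, and neither of its differences passed (limma adjusted p = 0.077 and 0.15). PRA1.F1 differed the other way, with 421, 218 and 509.7 in AtGATA2ox, 873, 996 and 1233 in bri1-116 and 653, 693 and 680.1 in Col, and its bri1-116 difference did not pass (limma adjusted p = 0.16).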
